A study of Mus musculus with 6 samples.

Results

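The complement components and receptors examined here were 9 genes, taken by name from a deposited table of 24341 genes. They were the 3 subunits of C1q (C1qa, C1qb and C1qc), the components C3, C4b, Cfb and Cfp, and the anaphylatoxin receptors C3ar1 and C5ar1. Each was found as a row of its own. RNA came from alveolar macrophages (AMs), the macrophages of the lung airspaces, collected by bronchoalveolar lavage (BAL) from naive female C57BL/6 mice aged 6 to 10 weeks. Mice were either CD44+/+ or CD44-/-, the latter lacking CD44, a receptor for the matrix glycosaminoglycan hyaluronan, in all cells and not only in AMs. There were 3 samples per genotype, and each sample pooled the lavage of 2 or 4 mice; errors are therefore between pools and not between single animals. The lavage cells were not sorted before RNA extraction, and red blood cells were lysed. Values are FPKM, read fragments scaled to transcript length and to the size of the library, which are per length and so allow levels of different genes to be compared.

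Complement is a cascade of plasma and tissue proteins that marks particles and dying cells for uptake. C1q starts its classical pathway and is made mainly by macrophages, as a protein that needs all 3 subunit chains. C3 is the component on which the pathways meet, C4b is the classical pathway's partner of C3, factor B (Cfb) is the protease of the alternative pathway, and properdin (Cfp) steadies that pathway's enzyme. Cleavage of C3 and C5 releases small peptides that act on the receptors encoded by C3ar1 and C5ar1. Tissue macrophages outside the airspaces are known for high C1q, whereas AMs are known for low C1q.

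C1qb, C1qc and C1qa lie side by side on chromosome 4 of GRCm38 (mm10), all on the minus strand, and their genes span 18.7 kb in the GENCODE annotation. C1qb is at 136880129 to 136886187, C1qc at 136889804 to 136893065 and C1qa at 136895917 to 136898803. C3 (57203970 to 57228136), C4b (34728380 to 34743882) and Cfb (34856374 to 34862518) are on chromosome 17. C3ar1 is on chromosome 6 from 122847138 to 122856161, C5ar1 on chromosome 7 from 16246743 to 16259540, and Cfp on chromosome X from 20925454 to 20931555. None is on chromosome 2, where Cd44 lies.

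Promoter windows from RefSeq (GRCm38.p6) were matched by symbol for 6 of the 9 genes; C1qa, C4b and Cfb had no entry. The windows of C1qb and C1qc, neighbouring subunits of C1q, are shown with that of C3ar1, whose values did not overlap between genotypes, and that of C3, whose values did. Each runs 5′ to 3′ on the minus strand and stops before the annotated start of the gene. Capitals mark matches, on either strand, to the core GAGGAA bound by PU.1 or to TGCTGA, the core of the site bound by MAF factors. PU.1 is a transcription factor of the macrophage lineage. The windows are C1qb at chr4:136886201-136886450, C1qc at chr4:136893066-136893164, C3ar1 at chr6:122856162-122856407 and C3 at chr17:57228137-57228386.
C1qb: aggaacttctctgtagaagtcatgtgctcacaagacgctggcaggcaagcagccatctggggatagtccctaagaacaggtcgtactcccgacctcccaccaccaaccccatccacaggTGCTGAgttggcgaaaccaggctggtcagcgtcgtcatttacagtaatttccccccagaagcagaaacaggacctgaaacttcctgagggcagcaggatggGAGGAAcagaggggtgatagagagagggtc
C1qc: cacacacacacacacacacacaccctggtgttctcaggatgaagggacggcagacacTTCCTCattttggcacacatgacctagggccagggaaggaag
C3ar1: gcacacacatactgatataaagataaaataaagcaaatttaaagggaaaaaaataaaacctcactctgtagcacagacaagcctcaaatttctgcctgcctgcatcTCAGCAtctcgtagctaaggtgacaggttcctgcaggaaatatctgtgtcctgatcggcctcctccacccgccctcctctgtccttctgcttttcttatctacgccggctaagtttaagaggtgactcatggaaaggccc
C3: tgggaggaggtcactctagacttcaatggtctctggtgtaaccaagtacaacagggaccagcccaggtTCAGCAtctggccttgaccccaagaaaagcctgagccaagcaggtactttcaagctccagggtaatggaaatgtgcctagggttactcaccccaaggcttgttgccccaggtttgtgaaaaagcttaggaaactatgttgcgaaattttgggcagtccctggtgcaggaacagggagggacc

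In these windows the C1qb match to TGCTGA begins 131 bases, and its match to GAGGAA 30 bases, before the RefSeq start. C1qc has 1 match to GAGGAA, on the opposite strand. Over the whole 250 bases before the RefSeq start, which for some genes is a longer stretch than that before the annotated start, TGCTGA was found for 4 of the 6 genes (C1qb, C3, C3ar1 and C5ar1) and GAGGAA for 2 (C1qb and C1qc), against 16.1% and 23.3% of all 32851 RefSeq windows of that length. The C5ar1 match begins 17 bases before the RefSeq start, inside the gene as GENCODE annotates it. No match was seen in the 6 windows to the interferon response element GAAANNGAAA, held by 2.98% of all windows, or to the STAT element TTCNNNGAA, held by 7.02%. The matches of 1 motif did not overlap those of another. A match is a run of letters and not a measured binding site.

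The 9 genes fell into an abundant and a scarce group. In CD44+/+ AMs the abundant members were Cfb at 130 ± 49.8 FPKM (SD, n = 3), C5ar1 at 122 ± 17.3 FPKM (SD, n = 3), C3 at 120 ± 31.7 FPKM (SD, n = 3) and Cfp at 114 ± 4.73 FPKM (SD, n = 3). Each of these had a mean over the 6 samples above that of at least 93.4% of the tested genes, and neighbours in this order did not differ beyond their spread. C1qa (1.64 ± 0.503), C1qb (1.55 ± 0.411) and C1qc (1.32 ± 0.49 FPKM, SD, n = 3) were far below, with C3ar1 at 0.443 ± 0.0497 FPKM (SD, n = 3) and C4b at 0.404 ± 0.0996 FPKM (SD, n = 3) lowest. The C1q subunits overlapped one another in level, as did C3ar1 and C4b. Within single samples, C3 was 37.4 to 116 times as high as C1qa, and C5ar1 was 156 to 336 times as high as C3ar1. The unsorted lavage cells thus carried much transcript for C3, factor B, properdin and the C5a receptor, and little for C1q or the C3a receptor. The part of cells other than AMs in these levels was not tested.

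**Figure D1:**
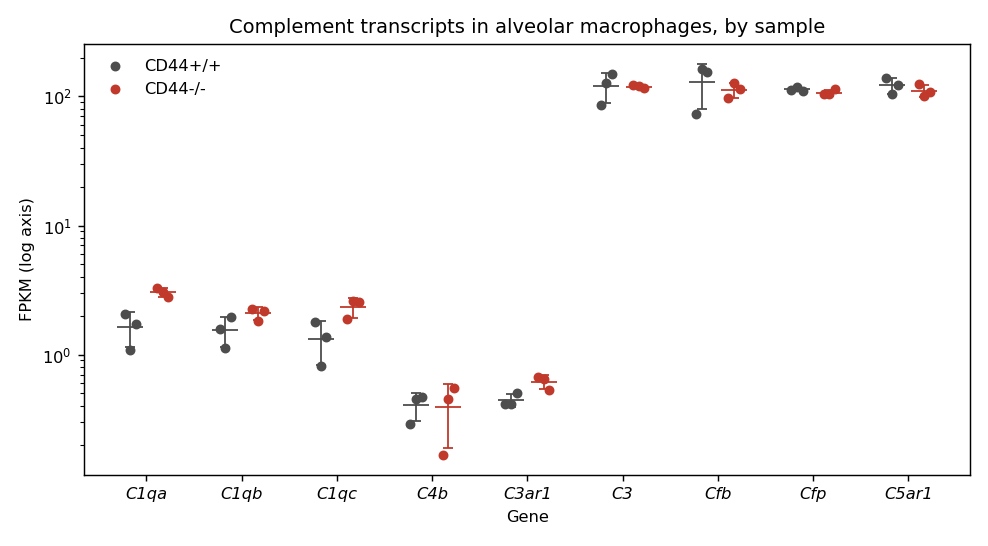
FPKM of the 9 genes (log axis) in the 3 CD44+/+ (grey) and 3 CD44-/- (red) samples, with a horizontal mark at the mean and bars for the SD. C3, Cfb, Cfp and C5ar1 lie near 100 FPKM with the genotypes overlapping, and the values of C1qa, C1qc and C3ar1 are higher in all CD44-/- samples.

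The genotype was checked first by Cd44 itself. It was at 540, 535 and 527 FPKM in the CD44+/+ samples and at 54.7, 54.5 and 51.4 FPKM in the CD44-/- samples. Airspace macrophage identity was checked by 10 markers, among them Chil3, Ear1 and Plet1, which summed to between 14869 and 17335 FPKM in CD44+/+ and between 13998 and 18180 FPKM in CD44-/- samples. Chil3 made up most of that sum, at 10300 to 14200 FPKM. None of the 10 had an adjusted p under 0.05, and 1, Krt79, had values without overlap, lower in CD44-/- AMs. Depth relative to CD44+/+ replicate 1 ranged from 0.814 to 1.05, and absolute depth is unknown. Genotypes were compared with limma on log2(FPKM + 0.1) in the 10800 genes whose mean over all samples reached 0.5 FPKM. Fold changes are CD44-/- over CD44+/+ on that scale, which understates the change of low genes. Of the 9 members 8 were tested; C3ar1 lay just inside this limit (0.53 FPKM) and C4b just outside it (0.397 FPKM).

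None of the 8 tested members had an adjusted p under 0.05, which 0.111% of all tested genes reached. At an unadjusted p under 0.05 there were 2 members, C1qa and C1qc, both higher in CD44-/- AMs, where 4.75% of all tested genes were called in that direction and 7.69% in either. In 3 members, C1qa, C1qc and C3ar1, the lowest CD44-/- value exceeded the highest CD44+/+ value, which was so for 6.75% of all tested genes. No member had its CD44-/- values wholly below the CD44+/+ values, as 4.88% of all tested genes did. C3ar1 passed the limit of 0.5 FPKM through its CD44-/- values, so its direction had a part in its being tested. With the replicate number as a block, 4 members had an unadjusted p under 0.05, namely C1qa, C1qb, C1qc and C5ar1, and none an adjusted p under 0.05. The share of all tested genes with an unadjusted p under 0.05 was 9.71% with the block, also higher than without it. After quantile normalization 455 of 901 genes with an unadjusted p under 0.05 were higher in CD44-/- AMs, against 513 of 831 without it.

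Of the members, C1qa and C1qc had the largest positive log2 fold changes, with all 6 samples and under each alternative. C1qa encodes the A chain of C1q. Its values were 2.08, 1.09 and 1.74 FPKM in CD44+/+ replicates 1, 2 and 3, and 3.26, 3.06 and 2.78 FPKM in CD44-/- replicates 1, 2 and 3. All 3 CD44-/- samples were above the CD44+/+ samples, and CD44+/+ replicate 2 was the lowest. The log2 fold change was 0.89 (standard error 0.21, 95% interval 0.40 to 1.38, unadjusted p = 0.00273, adjusted p = 0.294), or 1.86-fold. The exact two-sided permutation test gave p = 0.1, the smallest possible with 3 samples against 3.

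C1qc, the C chain, had 1.79, 0.813 and 1.36 FPKM in CD44+/+ and 1.87, 2.6 and 2.56 FPKM in CD44-/- samples. The genotypes did not overlap, but CD44-/- replicate 1 was only just above CD44+/+ replicate 1. Its log2 fold change was 0.83 (standard error 0.26, 95% interval 0.23 to 1.43, unadjusted p = 0.0129, adjusted p = 0.471).

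C1qb, the B chain, had 1.59, 1.12 and 1.94 FPKM in CD44+/+ and 2.27, 1.81 and 2.18 FPKM in CD44-/- samples. Here CD44+/+ replicate 3 was above CD44-/- replicate 2, so that the genotypes overlapped. The log2 fold change of C1qb was 0.43 (standard error 0.20, 95% interval -0.03 to 0.89, unadjusted p = 0.0641, adjusted p = 0.683), and its unadjusted p with the replicate block was 0.028.

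Summed over the 3 subunits, C1q transcript was 5.46, 3.02 and 5.04 FPKM in CD44+/+ and 7.4, 7.47 and 7.52 FPKM in CD44-/- AMs. The CD44-/- samples lay close together while the CD44+/+ samples spread widely, with replicate 2 lowest. The C1qa share of this sum was 34.5% to 38.1% in CD44+/+ and 37% to 44.1% in CD44-/- samples, and that of C1qb was 29.1% to 38.5% and 24.2% to 30.7%. These shares overlapped. The C1qa to C1qb ratio ranged from 0.897 to 1.69 over the 6 samples. Leaving out CD44+/+ replicate 2 gave log2 fold changes of 0.64 for C1qa, 0.54 for C1qc and 0.23 for C1qb, the lowest values for each subunit when single samples were left out. Leaving out CD44+/+ replicate 1 gave 1.08 for C1qa (adjusted p = 0.115) and 1.07 for C1qc (adjusted p = 0.152).

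**Figure D2:**
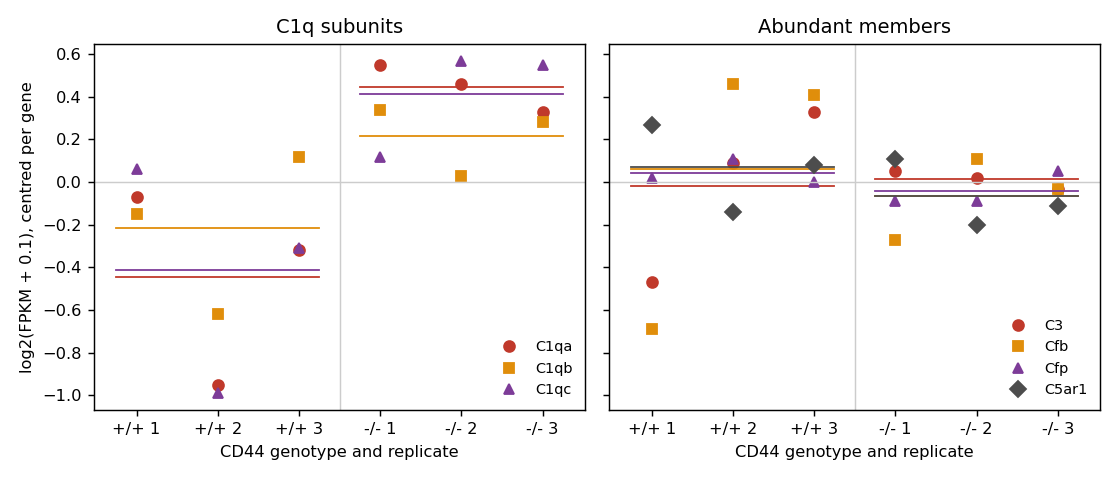
Values of log2(FPKM + 0.1), centred on the 6-sample mean of each gene, for the C1q subunits (left) and for the 4 abundant members (right), by genotype and replicate; horizontal lines are genotype means. On the left CD44+/+ replicate 2 is lowest for all 3 genes, and on the right CD44+/+ replicate 1 is lowest for C3 (-0.47) and Cfb (-0.69).

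Genes of other cells and states were read beside C1q. Of the 9 markers of interstitial macrophages, a lung macrophage outside the airspaces, 3 were tested, and none had an adjusted p under 0.05. All 3 had positive log2 fold changes, with a median of 0.44 and Ms4a7 the smallest. The list summed to 8.75 to 12.3 FPKM in CD44+/+ and 11.1 to 13.5 FPKM in CD44-/- samples. Among them Ms4a7 had 5.79, 6.44 and 6.57 FPKM in CD44+/+ and 7.27, 7.09 and 7.2 FPKM in CD44-/- samples, without overlap (log2 fold change 0.20, unadjusted p = 0.0359, adjusted p = 0.599). The markers Cd163, Folr2 and Lyve1 were at or below 0.106 FPKM in every sample, and each was listed at 0 in 3 or more of the 6. Cx3cr1, another marker of the list, was at 0.368 to 0.539 FPKM. The part of such cells in the C1q values was not tested, and in bulk RNA fewer cells of a type and less RNA per cell cannot be told apart.

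The 5 antigen presentation genes (Cd74, H2-Aa, H2-Ab1, H2-Eb1 and Ciita), which are also higher in other lung macrophages and dendritic cells, summed to 1053, 876 and 807 FPKM in CD44+/+ and 989, 1942 and 1484 FPKM in CD44-/- samples. Unlike C1q, their sum in CD44-/- replicate 1 was within the CD44+/+ range. For 4 of the 5 the unadjusted p was under 0.05, with higher means in CD44-/- AMs, where 4.75% of all tested genes were called in that direction. For none was the adjusted p under 0.05, and the genotypes overlapped in all 5. Among the CD44-/- samples all 5 were lowest in replicate 1 and highest in replicate 2, so they varied together. Monocyte markers summed to 5.17 to 6.23 FPKM in CD44+/+ and 4.98 to 6.62 FPKM in CD44-/- samples, and dendritic cell markers to 3.06 to 6.45 and 4.28 to 9.78 FPKM, with overlap in both lists. B cell (0.144 to 0.535 FPKM), T cell (0.663 to 1.87 FPKM) and fibroblast (0.0235 to 0.276 FPKM) markers were low in all samples.

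By the root mean square difference between centred log2 profiles over the 6 samples, the 8 tested genes most like the mean of the C1q subunits were Angptl6, Syngr1, Gm21975, Rgcc, Plekhf1, Fam43a, Dysf and Erbb3, at 0.13 to 0.18. Rgcc, a cell cycle regulator first described as a gene that responds to complement, had 20.2, 12.9 and 17.3 FPKM in CD44+/+ and 23.6, 21.1 and 23.7 FPKM in CD44-/- samples. Dysf, which encodes the membrane repair protein dysferlin, had 3.12, 2.32 and 2.61 FPKM in CD44+/+ and 4.48, 5.06 and 5.21 FPKM in CD44-/- samples (log2 fold change 0.86, adjusted p = 0.0722). Both were chosen for their likeness to C1q, so their pattern over the samples is set by that choice. None of the 8 had an adjusted p under 0.05.

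C3 had 85.5, 126 and 148 FPKM in CD44+/+ and 122, 120 and 116 FPKM in CD44-/- samples. The CD44-/- values lay within the CD44+/+ range, in which replicate 1 was low. The log2 fold change of C3 was 0.03 (standard error 0.17, 95% interval -0.35 to 0.41, adjusted p = 0.989, exact two-sided permutation p = 1), so that differences up to 1.33-fold higher or 0.784-fold were within the interval. Without CD44+/+ replicate 1 it was -0.19 (unadjusted p = 0.0291, adjusted p = 0.336), the other direction; without that sample 1354 of 10805 genes had an unadjusted p under 0.05, against 831 of 10800 with it.

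Cfb had 72.7, 162 and 156 FPKM in CD44+/+ and 97.2, 127 and 115 FPKM in CD44-/- samples. As with C3, CD44+/+ replicate 1 was lowest and the other CD44+/+ samples highest, by a 2.22-fold range of Cfb within that genotype. Among the CD44-/- samples replicate 1 was lowest for Cfb but highest for C3. By the root mean square difference the Cfb profile was at 0.22 from that of C3, place 1158 of the tested genes. The log2 fold change of Cfb was -0.12 (standard error 0.27, 95% interval -0.74 to 0.50, adjusted p = 0.973). It was -0.50 without CD44+/+ replicate 1 (unadjusted p = 0.00144, adjusted p = 0.133), 0.08 without CD44+/+ replicate 2 and 0.05 without CD44+/+ replicate 3, so its direction was not fixed. Only 85 bases separate Cfb from C2 on the same strand, and how fragments reaching across were assigned is not given in the sources used here. The Cfb to C3 ratio stayed within 0.797 to 1.28 over the 6 samples.

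Airway epithelium is known to make C3 as well. Markers of airway secretory cells, led by Scgb1a1, Bpifa1 and Scgb3a2, summed to 856, 1419 and 953 FPKM in CD44+/+ and 1156, 781 and 660 FPKM in CD44-/- samples, and all 8 of them had negative log2 fold changes with no adjusted p under 0.05. Neutrophil markers summed to 62.6, 102 and 87.7 FPKM in CD44+/+ and 74.7, 80 and 84.9 FPKM in CD44-/- samples. The airway sum was lowest in replicate 1 among the CD44+/+ samples, as C3 and Cfb were. Among the CD44-/- samples that sum was highest in replicate 1, where C3 was also highest (122 FPKM) and Cfb lowest (97.2 FPKM). The neutrophil sum was lowest in replicate 1 of both genotypes, in CD44+/+ samples through S100a8, S100a9 and Retnlg, whereas Mmp8 and Cxcr2 were highest there. The part of either cell type in the C3 and Cfb values was not tested. Genes among the 5 most like C3 in profile were Crip2, Utrn, Ifit1 and Ybey, at 0.06 to 0.07. Ifit1, an interferon-induced gene, had 0.823, 1.16 and 1.3 FPKM in CD44+/+ and 1.11, 1.08 and 1.13 FPKM in CD44-/- samples.

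Cfp was the steadiest member, with 112, 119 and 110 FPKM in CD44+/+ and 104, 104 and 114 FPKM in CD44-/- samples. The genotypes overlapped through CD44-/- replicate 3. Its log2 fold change was -0.08 (standard error 0.06, 95% interval -0.21 to 0.05, adjusted p = 0.851), which leaves room for little more than 0.863-fold to 1.03-fold.

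C4b had 0.289, 0.453 and 0.469 FPKM in CD44+/+ and 0.166, 0.453 and 0.554 FPKM in CD44-/- samples, with CD44-/- replicate 1 lowest and CD44-/- replicate 3 highest. It was not in the main comparison. With no limit on low values its log2 fold change was -0.12 (95% interval -1.01 to 0.78, adjusted p = 0.973). C4a, a near-identical gene 65.2 kb away, was at or below 0.0678 FPKM in every sample, and short reads may have been split between the pair, so both levels are uncertain.

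C3ar1, the receptor for C3a, had 0.415, 0.413 and 0.5 FPKM in CD44+/+ and 0.668, 0.648 and 0.533 FPKM in CD44-/- samples. All CD44-/- samples were higher, by little in replicate 3. The log2 fold change of C3ar1 was 0.40 (standard error 0.24, 95% interval -0.15 to 0.95, adjusted p = 0.809), and without an intensity trend in the variance its unadjusted p was 0.00743 in place of 0.132.

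C5ar1, the receptor for C5a, had 139, 105 and 122 FPKM in CD44+/+ and 125, 101 and 108 FPKM in CD44-/- samples. In both genotypes replicate 1 was highest and replicate 2 lowest, and the genotypes overlapped. Its log2 fold change was -0.13 (standard error 0.11, 95% interval -0.38 to 0.12, unadjusted p = 0.265, adjusted p = 0.911), with an unadjusted p of 0.0285 and an adjusted p of 0.441 when replicates were blocked. C5ar2, the second C5a receptor, was at 10.1 to 12.8 FPKM over the 6 samples, with a log2 fold change of 0.07.

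**Figure D3:**
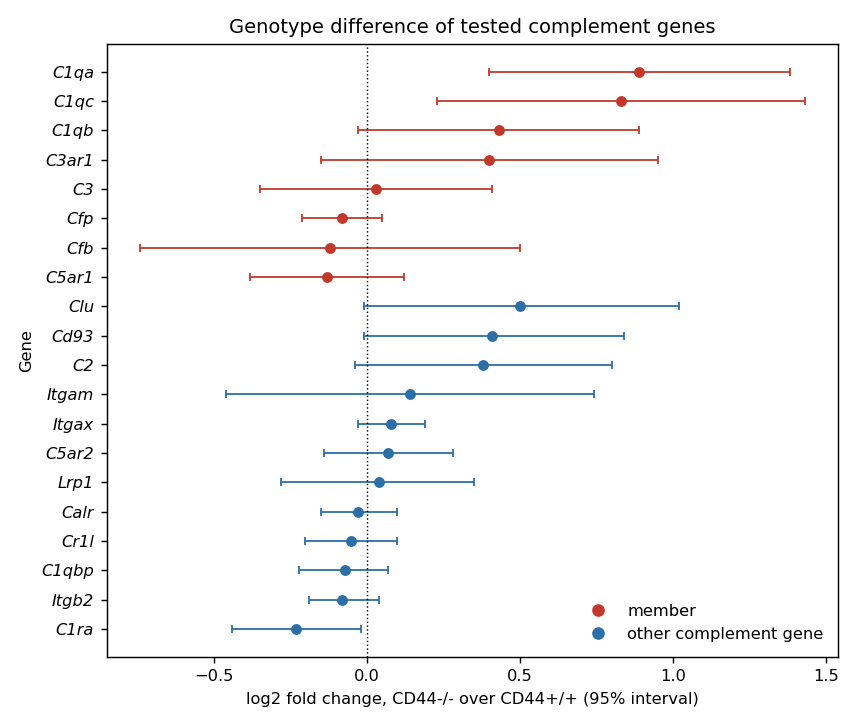
Log2 fold change, CD44-/- over CD44+/+, with 95% intervals from limma, for the 8 tested members (red) and for other tested complement genes (blue). Intervals of C1qa and C1qc lie above 0 and that of C1ra below 0, and no gene shown had an adjusted p under 0.05.

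The rest of the pathway was read from a list of 45 other complement genes, of which 13 were tested, 32 were under the limit and 13 of these were listed at 0 in all samples. None of the 13 tested genes had an adjusted p under 0.05, and 1, C1ra, had an unadjusted p under 0.05, as did 7.69% of all tested genes. The median log2 fold change of the 13 was 0.04, with 7 above 0 and 6 below. C1ra encodes C1r, the first protease that C1q activates. It had 12.5, 13.8 and 14.9 FPKM in CD44+/+ and 10.6, 11.9 and 12.7 FPKM in CD44-/- samples, overlapping through CD44-/- replicate 3, with a log2 fold change of -0.23 (unadjusted p = 0.0378, adjusted p = 0.615). Its unadjusted p was not under 0.05 with median-ratio scaling, quantile normalization, a fit without the variance trend or the loss of CD44+/+ replicate 2, CD44+/+ replicate 3, CD44-/- replicate 1 or CD44-/- replicate 2, and was 0.00633 with the replicate block.

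C1s, the next protease, had little transcript: C1s1 was at or below 0.1 FPKM, and C1s2 was listed at 0. C2, the protease partner of C4b, had 0.883, 0.757 and 0.758 FPKM in CD44+/+ and 0.936, 1.13 and 1.15 FPKM in CD44-/- samples. All CD44-/- samples were above the CD44+/+ samples, with a log2 fold change of 0.38 (unadjusted p = 0.0716, adjusted p = 0.697). The ficolin Fcna was at 0.217 to 0.657 FPKM, Colec11 was at or below 0.091 FPKM, and the lectin pathway genes Mbl1, Mbl2, Masp1, Masp2, Fcnb and Colec10 were listed at 0. Cfd, the protease that cuts factor B, was above 0 only in CD44+/+ replicate 2, at 0.0734 FPKM.

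Of the 7 terminal components, which form the membrane pore, none was tested. C8g was highest at 0.355 to 0.617 FPKM, Hc, which encodes C5, was at 0.0182 to 0.183 FPKM, C6 and C7 were at or below 0.0603 FPKM, and C8a, C8b and C9 were listed at 0. The unsorted lavage cells thus had much C5ar1 transcript and little Hc transcript.

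Of the 11 other receptors and binding partners 9 were tested, and none had an unadjusted p under 0.05. Vsig4 and Cr2, both receptors for cleaved C3 named after their values were seen, were not tested, with means of 0.121 and 0.00423 FPKM over the 6 samples. Itgb2, Itgax and Itgam encode chains of the complement receptors that bind cleaved C3. Itgb2 (861 to 964 FPKM over the 6 samples) and Itgax (435 to 495 FPKM) were high, while Itgam, named after its values were seen, was at 0.96 to 1.93 FPKM. The genotypes did not overlap for Itgax, with the CD44-/- values higher by a log2 fold change of 0.08 (adjusted p = 0.809). Calr (676 to 748 FPKM), Lrp1 (162 to 247 FPKM) and C1qbp (51.8 to 60.8 FPKM), whose proteins have been described to bind C1q, had log2 fold changes of -0.03, 0.04 and -0.07. Cd93, named after its values were seen, had 11.8, 10.1 and 16.1 FPKM in CD44+/+ and 20.9, 14.5 and 15.1 FPKM in CD44-/- samples, a log2 fold change of 0.41 (unadjusted p = 0.0529, adjusted p = 0.658).

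Among regulators, Cr1l, also named after its values were seen and listed with the receptors, encodes Crry, the main membrane inhibitor of complement on mouse cells. It was at 43.5 to 49.8 FPKM, with a log2 fold change of -0.05 (adjusted p = 0.962). Clu, encoding the pore inhibitor clusterin, had 1.47, 1.48 and 2.32 FPKM in CD44+/+ and 3.08, 2.58 and 1.9 FPKM in CD44-/- samples (log2 fold change 0.50, adjusted p = 0.665). The genotypes overlapped in both of these genes. Cd55, Cd59a and Serping1 were at or below 0.502, 0.489 and 0.189 FPKM.

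**Figure D4:**
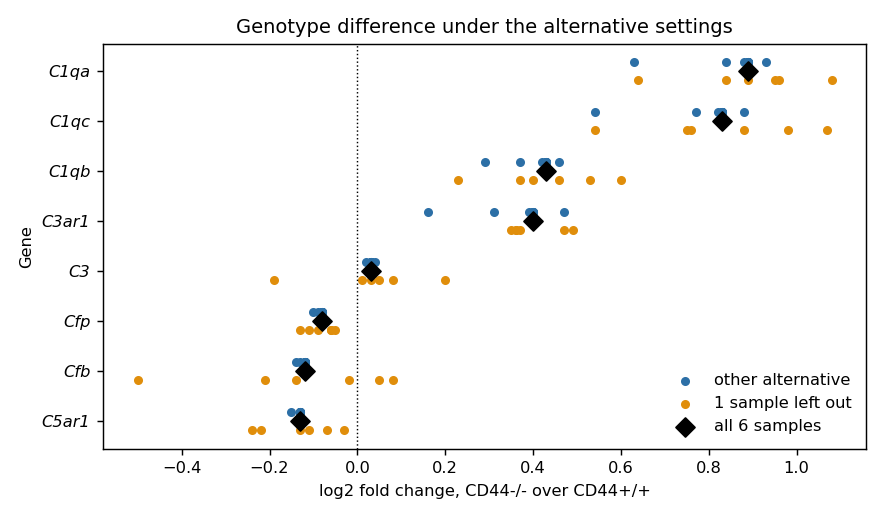
Log2 fold change of the 8 tested members with all 6 samples (black), under the other alternatives (blue) and with each sample left out (orange). Values for C1qa lie between 0.63 and 1.08, while those of C3 and Cfb cross 0 when single CD44+/+ samples are left out.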

How the data were processed

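RNA of BAL AMs from 3 CD44+/+ and 3 CD44-/- samples was measured by paired-end sequencing. STAR was used by the authors for alignment to mm10, and the deposited values are FPKM per gene from Cufflinks (Cufflinks Assembly & DE 2.1.0); annotation and settings are not given in the sources used here. Many deposited FPKM values are rounded to 3 significant digits. Genotypes came from the labels of the samples. Values follow the table's gene identifiers, and its other name column matched them in 0 rows. Authors' group means, fold changes, test statistics and p-values in the table were not used. The 1 gene with a missing value was dropped.

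The 10800 genes whose 6-sample mean reached 0.5 FPKM entered limma 3.58.1 (R 4.3.3) as log2(FPKM + 0.1), using lmFit and eBayes with its trend option. Tests were two-sided, p-values were adjusted by Benjamini-Hochberg across these genes, and the threshold was 0.05. The comparison was tested on simulated data. Single genes were also compared by exact permutation. The methods call the samples independent pools, and p-values measure the spread between them. Read totals are unknown, so no counting error is given.

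Members, gene lists and tests were chosen with earlier results of these data known. Named were the members, other complement genes with an unadjusted p under 0.05 or among the 5 highest of their role, Cd44, marker and antigen presentation lists, and the genes most like C1q and C3. Marker genes were named where the result turns on them. Some genes that this rule names are not reported here. Same-numbered samples were treated as pairs in the replicate block because the deviations from the genotype means, across tested genes, correlated at 0.212 (number 1), 0.132 (number 2) and 0.211 (number 3); no label says that they were collected together. Further alternatives changed the pseudocount (1 or 0.01), the minimum mean (1 FPKM, or none), the scaling (median ratios, or quantiles) and eBayes (robust, or with no trend), or left out each sample in turn. Positions came from GENCODE vM21 (GRCm38) and promoters from RefSeq.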

Additional observations from a re-analysis of the deposited data

How the results depend on the processing

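Under all 15 alternatives, no complement member and no other complement gene had an adjusted p under 0.05, the 12 genes called among all genes became 6 to 36 with single samples left out, and no filter on low values gave 7. At an unadjusted p under 0.05, counts of members ranged from 2 to 4 and those of the other complement genes from 0 to 3. All tested genes at that threshold, 831 with all samples, numbered 548 to 1354 with single samples left out, and 1354 of 10805 without CD44+/+ replicate 1, where 4 members passed it. The log2 fold changes of C1qa (0.63 to 1.08), C1qb (0.23 to 0.6), C1qc (0.54 to 1.07), C3ar1 (0.16 to 0.49, in 14 alternatives, since a mean of at least 1 FPKM leaves it out), Cfp (-0.13 to -0.05) and C5ar1 (-0.24 to -0.03) kept their sign. That of C3 reversed to -0.19 without CD44+/+ replicate 1, and its values with single samples left out ran from -0.19 to 0.20. That of Cfb reversed to 0.08 and 0.05 without CD44+/+ replicates 2 and 3, and ran from -0.50 to 0.08. The replicate block changed no call at an adjusted p under 0.05 for a complement gene (adjusted p of C1qa 0.235, C1qc 0.424 and Cfb 0.871), and moved the count of members at an unadjusted p under 0.05 from 2 to 4, as that of all tested genes went from 831 to 1049. The cause of these moves was not tested beyond which sample was left out. The scarce members rest on 0.166 to 3.26 FPKM, where unknown depth limits precision most.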

Other observations

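CD44+/+ replicate 1 was also lowest of the 6 samples for the scavenger receptor Marco (264 FPKM, against 349 and 532 FPKM in the other CD44+/+ samples and 389 to 469 FPKM in CD44-/- samples) and for the lipid-binding protein gene Fabp4 (150 FPKM, against 238 and 257 FPKM, and 220 to 239 FPKM). The single marker genes given here were named after their values were seen. S100a9, a neutrophil marker, was at 0.493, 18.9 and 15.8 FPKM in CD44+/+ and at 1.8, 4.2 and 2.31 FPKM in CD44-/- samples. Of the 6 tested neutrophil markers 3 had negative and 3 positive log2 fold changes, the latter being Csf3r (0.33, unadjusted p = 0.0176, adjusted p = 0.499), Cxcr2 (0.32, adjusted p = 0.708) and Mmp8 (0.30, unadjusted p = 0.0355, adjusted p = 0.598). Of the AM markers, Krt79 was at 265, 269 and 314 FPKM in CD44+/+ and at 224, 203 and 225 FPKM in CD44-/- samples, without overlap (log2 fold change -0.38, adjusted p = 0.185). The alveolar type 2 cell markers summed to 90.7 to 106 FPKM in CD44+/+ and 94.1 to 168 FPKM in CD44-/- samples. Of these the surfactant protein gene Sftpb had 2.13, 1.26 and 1.48 FPKM in CD44+/+ and 3.8, 2.32 and 6.53 FPKM in CD44-/- samples (log2 fold change 1.24, unadjusted p = 0.00588, adjusted p = 0.369), while Sftpc had a log2 fold change of 1.44 (unadjusted p = 0.0337, adjusted p = 0.591), Napsa of -0.01 and Abca3 of -0.04. Erythroid markers ranged from 15.1 to 125 FPKM in CD44+/+ and from 17.7 to 338 FPKM in CD44-/- samples, and the mesothelial marker Msln from 1.94 to 5.52 and from 1.69 to 4.89 FPKM, while the mesothelial markers Upk3b and Wt1 were listed at 0.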
